A study of Mus musculus with 6 samples.

Results

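Genes of prostaglandin and leukotriene synthesis, breakdown and reception, 10 in all, were followed in sciatic nerves of female mice and of male mice after surgery. They are the cyclooxygenase genes Ptgs1 and Ptgs2, the terminal synthase genes Ptges, Ptgis and Ptgds, the breakdown enzyme gene Hpgd, the prostaglandin E2 receptor genes Ptger2 and Ptger4, and the leukotriene genes Alox5 and Alox5ap. They were taken by gene symbol from the transcript names, and all 10 were found among the 54309 genes measured. C57BL/6 mice of 6 to 8 weeks gave the RNA, taken from the left nerve's distal part 24 h after surgery, in 3 libraries from females and 3 from males, with 2 animals pooled in each. Finding what is sexually dimorphic after axotomy (nerve cutting) was the stated aim. A treatment field names axotomy for every library, whereas the written procedure has the nerve exposed but left uncut, so the injury state of both groups is unsettled. No nerve of an unoperated mouse was analysed here, so no value below is a response to surgery.

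Prostaglandins are made from arachidonic acid that phospholipases free from membranes. A cyclooxygenase turns it into prostaglandin H2, and a terminal synthase turns that into prostaglandin E2, prostacyclin or another prostanoid. Leukotrienes come from the same fatty acid through 5-lipoxygenase. In injured peripheral nerve, prostaglandin E2 is known as a mediator of inflammation that sensitises pain-sensing axons, and leukotrienes are known for drawing in white blood cells.

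Libraries held 55272138 to 77610593 estimated reads. Levels are given in 2 scales. CPM, counts per library total scaled by TMM (a correction for library composition), compare 1 gene between libraries, and TPM also divide by transcript length, so they compare genes with each other. The sex-linked transcripts stood as labelled. Xist had 49509.3 to 68896.8 reads in female libraries, against 264.2, 14 and 23 in male libraries 1 to 3. Ddx3y had 0 to 12 in female and 4882 to 5764.3 in male libraries. Skeletal muscle transcripts stood apart in female 2 and male 1. Their 8 summed markers, with Acta1 highest in mean TPM, were at 1530 CPM in female 2 and 815 CPM in male 1, against 6.53 to 22.4 CPM in the other libraries. Schwann cell markers were present in every library, with S100b the highest in TPM of those reported.

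None of the 10 genes passed the threshold for a difference between female and male nerves, an adjusted p under 0.05 in edgeR's quasi-likelihood test with Benjamini-Hochberg adjustment over all 19129 genes tested. Over the whole table, 0.11% of genes passed, 0.0157% as higher and 0.0941% as lower in female nerves. Ddx3y passed, with an adjusted p of 0.00324 in edgeR. Xist did not, at a log2 fold change (female minus male) of 9.05 with an adjusted p of 0.114 in edgeR. A gene that did not pass is therefore not shown to be equal between the sexes. All 10 had enough reads to be tested, and their adjusted p ran from 0.156 to 0.99 in edgeR. At an unadjusted edgeR p under 0.05, Alox5ap was higher and Hpgd lower in female nerves, 2 of 10 genes, where 14.6% of all genes lay past that line, 5.82% as higher and 8.74% as lower. The same pair were the genes whose female and male libraries did not overlap, a pattern seen in 21.2% of all genes, with female above male in 9.65% and below it in 11.5%. DESeq2 called Hpgd lower and no other gene of the 10, in a test that called 5.28% of the genes it gave an adjusted p, 1.41% as higher and 3.87% as lower. The median log2 fold change, female minus male, was 0.11 over the 10 genes, with 6 above 0 and 4 below, against 0.016 over all genes, of which 53.6% were above 0.

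**Figure D1:**
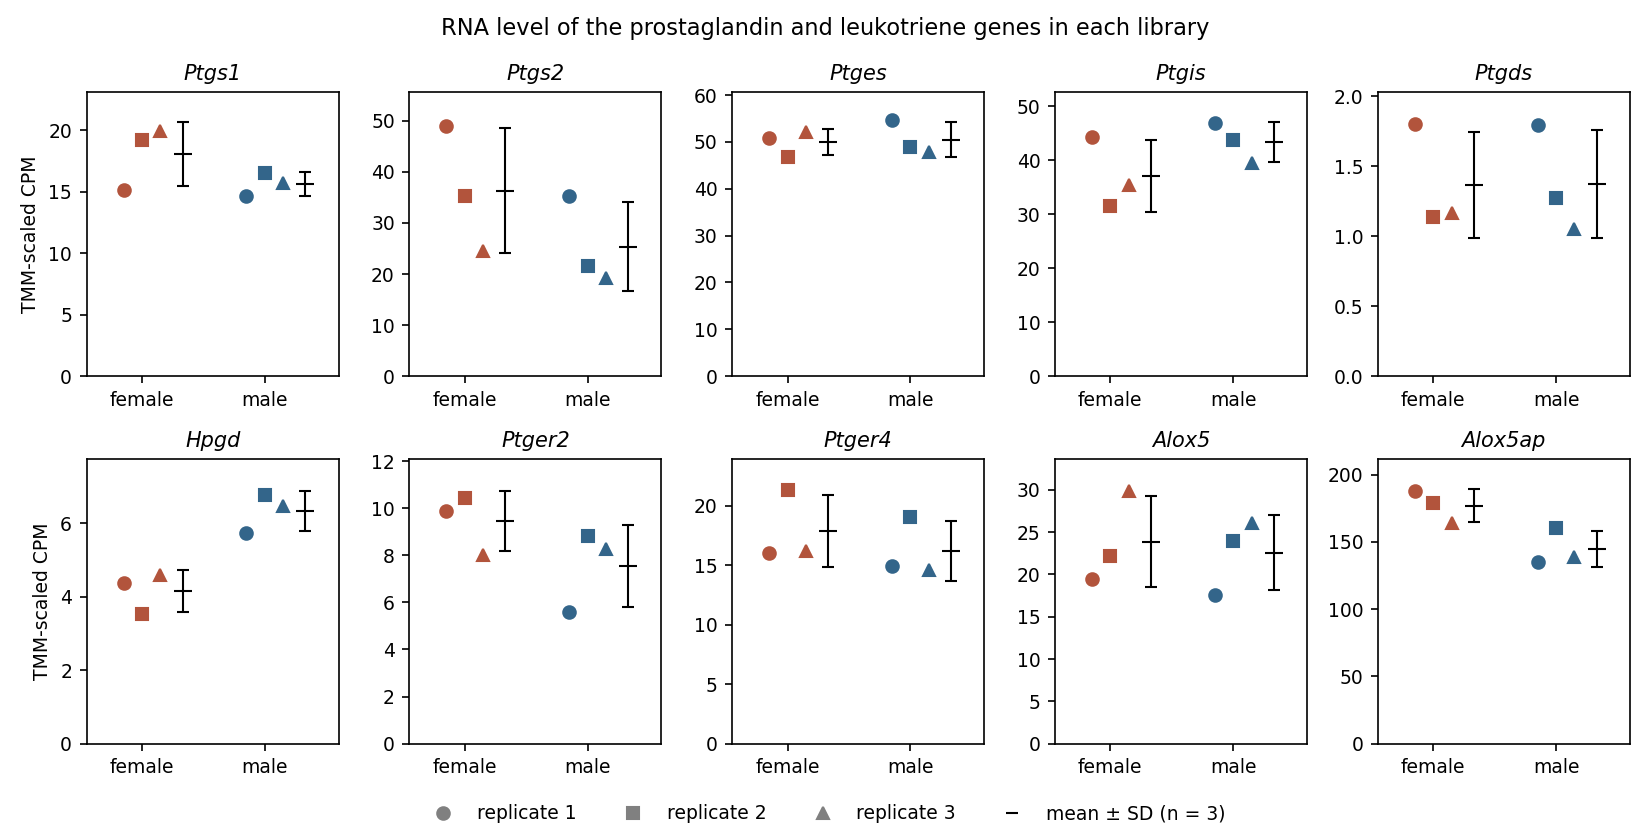
TMM-scaled CPM (vertical axis, from 0) of each of the 10 genes in the female and male libraries, with 1 point per library, its shape giving the replicate number, and the mean ± SD of 3 libraries beside the points. Only Hpgd and Alox5ap have female and male points that do not overlap, and Ptgs2 spreads from 19.2 to 49.0 CPM.

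Both cyclooxygenase genes had female and male libraries that overlapped, and neither passed the test. Ptgs2 (ENSMUSG00000032487.9) encodes cyclooxygenase-2, the form that cells switch on in inflammation. It was at 49.0, 35.4 and 24.6 CPM in female libraries 1 to 3, against 35.3, 21.6 and 19.2 CPM in male libraries 1 to 3. Female 1 was highest and male 3 lowest, and male 1 lay within the female range, level with female 2, so the groups overlapped. Ptgs2 averaged 36.3 ± 12.2 CPM in female and 25.4 ± 8.70 CPM in male nerves (SD, n = 3 each). The log2 fold change was 0.52 (SE 0.33, 95% interval -0.28 to 1.31), with an adjusted p of 0.531 in edgeR. It was 0.24 without female 1, 0.84 without male 1 and 0.85 without both libraries that held muscle transcripts.

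Ptgs1 (ENSMUSG00000047250.14) encodes cyclooxygenase-1, the form most tissues make all the time. It was at 15.1, 19.2 and 19.96 CPM in female libraries, against 14.6, 16.5 and 15.7 CPM in male libraries. Female 2 and female 3 stood above every male library, while female 1 lay among them. Female over male, that was a log2 fold change of 0.21 (SE 0.12, 95% interval -0.07 to 0.49), with an adjusted p of 0.468 in edgeR. It was 0.33 without female 1, 0.13 without female 3 and 0.12 without both libraries that held muscle transcripts. The highest library was 1.37 times the lowest for Ptgs1 and 2.55 times the lowest for Ptgs2. The SD within sexes was 0.166 for Ptgs1 and 0.482 for Ptgs2 on the log2 CPM scale, with a median of 0.162 over all genes tested.

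Whether sequence has a part in the spread of either gene was not tested. The stretch before each cyclooxygenase gene's start is shown, from the promoter sequences of RefSeq for GRCm38.p6. It holds the 250 bases before the annotated start on the + strand, at chr1:150099781-150100030 for Ptgs2 and at chr2:36230176-36230425 for Ptgs1. Capitals mark matches to the motifs searched.
Ptgs2: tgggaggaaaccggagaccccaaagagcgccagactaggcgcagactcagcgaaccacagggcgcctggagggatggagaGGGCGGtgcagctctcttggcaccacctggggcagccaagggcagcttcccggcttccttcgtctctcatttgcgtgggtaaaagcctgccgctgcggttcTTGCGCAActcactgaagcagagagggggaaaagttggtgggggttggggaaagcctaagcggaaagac
Ptgs1: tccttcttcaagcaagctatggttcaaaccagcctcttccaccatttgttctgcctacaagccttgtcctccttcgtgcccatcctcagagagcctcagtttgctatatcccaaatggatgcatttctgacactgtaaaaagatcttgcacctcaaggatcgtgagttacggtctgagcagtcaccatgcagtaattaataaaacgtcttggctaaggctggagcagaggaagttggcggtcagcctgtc
Just after the annotated Ptgs2 start, at chr1:150100037-150100066, lie both of its other matches, which overlap each other. Whether transcription begins at that annotated base was not examined.
Ptgs2 after the start: accactACGTCACGTGgagtccgctttaca

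The search covered 6 motifs on both strands of 300 bases, 250 before and 50 after the annotated start, in the 8 of the 10 genes found in that table and in all its 32851 promoters. TTGCGCAA, the palindromic form of the C/EBP motif, began 69 bases before the Ptgs2 start and is in 0.18% of all promoters. ACGTCA, the core of the cyclic AMP response element, began 12 bases after it and is in 7.51% of promoters. CACGTG, an E-box, began 16 bases after it and is in 7.15% of promoters. GGGCGG, the GC box, was found 170 bases before the Ptgs2 start and also in Ptges, Hpgd, Ptger4 and Alox5, and is in 35.66% of promoters. TATAAA was found in Hpgd among these genes, 4 bases after its annotated start, and is in 13.62% of promoters. For NF-kB a single pattern of 10 bases was searched, and other forms of its motif were not. That pattern was found in none of these genes and is in 1.63% of promoters. Whether these genes hold an NF-kB site of another form was therefore not tested. The Ptgs1 stretch held none of the 6 motifs as searched. A match says only that these letters are present.

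The terminal synthase genes did not pass the test. Ptges (ENSMUSG00000050737.14) encodes microsomal prostaglandin E synthase-1, which works downstream of cyclooxygenase-2. It was at 50.9, 46.8 and 52.2 CPM in female libraries, against 54.8, 48.9 and 47.9 CPM in male libraries. The libraries of the sexes were interleaved, and the highest was 1.17 times the lowest, the narrowest span of the 10 genes. Its log2 fold change was -0.02 (SE 0.08), and the 95% interval, -0.19 to 0.16, was the narrowest as well.

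Ptgis (ENSMUSG00000017969.14) encodes prostacyclin synthase, whose product relaxes vessels and holds back platelets. It was at 44.3, 31.5 and 35.4 CPM in female libraries, against 46.8, 43.7 and 39.6 CPM in male libraries. Female 2 and female 3 lay below every male library, and female 1 lay within the male range. Its log2 fold change was -0.23 (SE 0.13, 95% interval -0.53 to 0.08), with an adjusted p of 0.479 in edgeR. It was -0.38 without female 1, -0.13 without female 2, and -0.06 without both libraries with muscle transcripts, female 2 and male 1.

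Ptgds (ENSMUSG00000015090.14) encodes lipocalin-type prostaglandin D synthase, a soluble enzyme that also carries small lipids. It had the lowest level of the 10 genes, with 133, 78 and 89 reads in female libraries, against 135, 77 and 58 reads in male libraries. In CPM that was 1.80, 1.13 and 1.16 in female libraries, against 1.80, 1.28 and 1.05 in male libraries. Female 1 and male 1 stood above the others in their groups, and the means were 1.37 ± 0.379 CPM in female and 1.37 ± 0.383 CPM in male nerves (SD, n = 3 each). At this depth the 95% interval of the log2 fold change ran from -0.66 to 0.63.

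Hpgd showed the clearest separation of the 10 genes. Hpgd (ENSMUSG00000031613.10) encodes 15-hydroxyprostaglandin dehydrogenase, which starts the inactivation of prostaglandin E2 and its relatives. It was at 4.37, 3.52 and 4.59 CPM in female libraries, against 5.74, 6.78 and 6.48 CPM in male libraries. Every female library lay below every male one, with female 2 lowest and male 2 highest. The means were 4.16 ± 0.566 CPM in female and 6.33 ± 0.534 CPM in male nerves (SD, n = 3 each), and the fitted ratio of female to male in edgeR was 0.658. The log2 fold change was -0.60 (SE 0.14, 95% interval -0.93 to -0.28).

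For Hpgd the 2 count tests gave different calls. The adjusted p was 0.156 in edgeR and 0.0073 in DESeq2. Over the 18 alternatives to the edgeR test, the log2 fold change stayed between -0.68 and -0.50 and the adjusted p ran from 0.0073 to 0.369. DESeq2 was the one alternative that called it. In TPM the libraries also did not overlap, at 5.91, 5.38 and 6.79 in female nerves and 7.72, 9.77 and 10.2 in male nerves. The reads behind these levels were 242.1 to 351 in female and 358 to 431 in male libraries.

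Summed markers of 3 cell types were likewise lower in every female library than in every male one. The 8 nerve fibroblast markers, with Dcn highest in TPM, summed to 7240 to 7650 CPM in female and 8970 to 12600 CPM in male libraries. In log2 fold change, 7 of 8 were below 0. Matrix genes weighed heavily in that sum, with Col3a1, Dcn and Col1a1 at 3415, 1992 and 1161 of 7240 CPM in female 1. Pdgfra had a log2 fold change of 0.07. Female and male libraries overlapped for Pdgfra, Dpt and Pi16, and the other markers of that list were lower in every female library. The 4 Schwann cell markers reported summed to 417 to 549 CPM in female and 570 to 755 CPM in male libraries, a narrow gap, with 4 of 4 below 0. The 6 perineurial cell markers, with Slc2a1 highest in TPM, summed to 707 to 874 CPM in female and 884 to 992 CPM in male libraries, with 6 of 6 below 0. No marker on these lists passed the threshold in edgeR, and none was at or under 3 reads in every library. DESeq2, which called Hpgd, also called 5 of these markers lower in female nerves. Over all genes it gave an adjusted p, DESeq2 called 3.87% lower. The 5 were Col1a1 and Dcn of the fibroblast list, S100b of the Schwann cell list, and Lypd2 and Crabp2 of the perineurial list. Their adjusted p in DESeq2 was 4.85e-06 for Col1a1, 0.0283 for Dcn, 0.000144 for S100b, 0.00954 for Lypd2 and 0.0176 for Crabp2. The part of these cell types in the Hpgd difference was not tested. In tissue RNA, fewer cells of a type and less RNA per cell cannot be told apart.

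**Figure D2:**
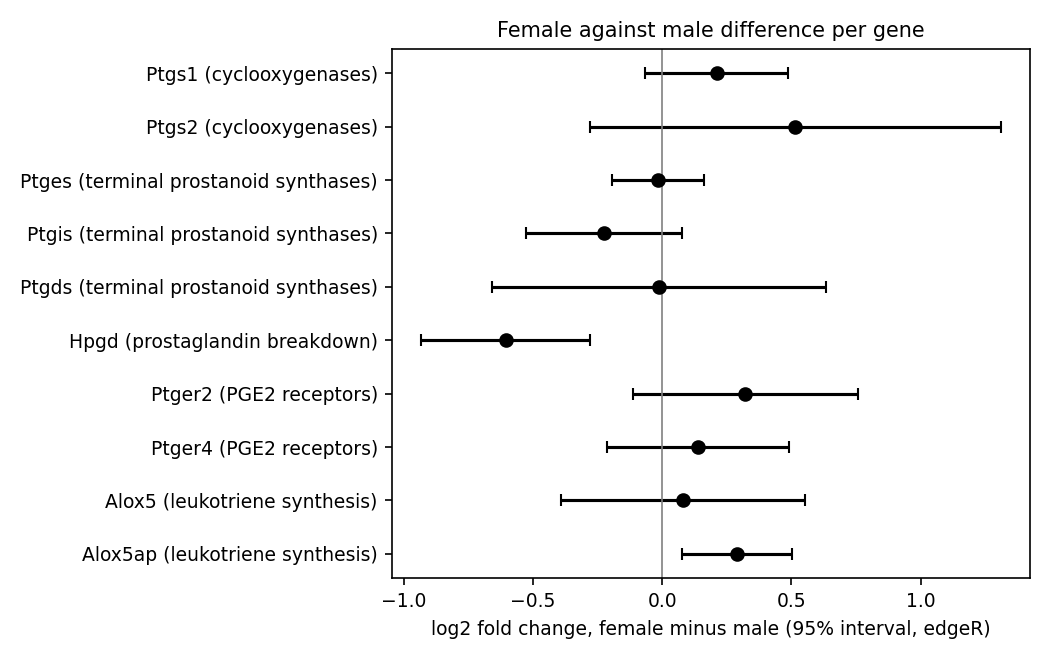
Log2 fold change, female minus male (horizontal axis), of the 10 genes with the 95% interval from edgeR, ordered by role from the top. The intervals of Hpgd (-0.93 to -0.28) and Alox5ap (0.08 to 0.50) exclude 0 before adjustment over all genes, and that of Ptgs2 is the widest.

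The prostaglandin E2 receptor genes were measured at lower TPM than most of the enzyme genes. Ptger2 (ENSMUSG00000037759.7) encodes EP2, which signals through cyclic AMP. It was at 9.90, 10.4 and 8.00 CPM in female libraries, against 5.58, 8.83 and 8.27 CPM in male libraries. Male 1 stood below all others, and the groups overlapped only through female 3. The log2 fold change was 0.32 (SE 0.19, 95% interval -0.11 to 0.76), with an adjusted p of 0.483 in edgeR. It was 0.15 without male 1 and 0.07 without both libraries that held muscle transcripts.

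Ptger4 (ENSMUSG00000039942.16) encodes EP4, the other receptor for prostaglandin E2 that raises cyclic AMP. It was at 16.0, 21.3 and 16.2 CPM in female libraries, against 14.9, 19.1 and 14.6 CPM in male libraries. Replicate 2 was the highest in each sex, and the groups overlapped. Its log2 fold change was 0.14 (SE 0.15, 95% interval -0.21 to 0.49), with an adjusted p of 0.719 in edgeR. Exons of Ptger4 overlap those of Ttc33 on the other strand in GENCODE M21, and Ttc33 had 1205 to 1619.2 reads. The sources used here do not say whether the counting used strand, so reads of this pair cannot be told apart with certainty.

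The leukotriene genes stood far apart in level. Alox5 (ENSMUSG00000025701.13) encodes 5-lipoxygenase, the enzyme that makes the leukotriene precursor, and is known from white blood cells. It was at 19.5, 22.2 and 29.9 CPM in female libraries, against 17.6, 24.0 and 26.1 CPM in male libraries. Female 3 was highest and male 1 lowest, and the groups overlapped throughout. Alox5 had a log2 fold change of 0.08 (SE 0.20, 95% interval -0.39 to 0.55), with an adjusted p of 0.890 in edgeR.

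Alox5ap (ENSMUSG00000060063.10) encodes the 5-lipoxygenase activating protein, a nuclear membrane protein that presents arachidonic acid to 5-lipoxygenase. It was at 188.2, 178.7 and 163.8 CPM in female libraries, against 135.2, 160.3 and 138.7 CPM in male libraries. Every female library lay above every male one, by a small step between female 3 and male 2. The means were 176.9 ± 12.3 CPM in female and 144.8 ± 13.6 CPM in male nerves (SD, n = 3 each), a ratio of 1.22. The log2 fold change was 0.29 (SE 0.09, 95% interval 0.08 to 0.50), with an adjusted p of 0.229 in edgeR and 0.104 in DESeq2, and 0.104 to 0.69 over the 18 alternatives.

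With all transcripts of Alox5ap summed, the size of its difference depended on whether length entered. With the length of the transcripts in use as an offset the log2 fold change was 0.11, with an adjusted p of 0.69 in edgeR. In TPM it was at 280.6, 254.8 and 223.8 in female libraries, against 217.4, 244.0 and 239.0 in male libraries, and the groups overlapped. A transcript of 504 nt without a coding sequence, Alox5ap-204, took 3.67%, 1.88% and 0% of the gene's reads in female libraries, against 8.35%, 4.09% and 5.19% in male libraries. Its share was lower in each female library than in each male one, and how often this occurs over all transcripts was not counted. In TPM, Alox5ap-204 was at 38.4, 20.2 and 0 in female libraries, against 60.7, 36.5 and 40.3 in male libraries. The main coding transcript, Alox5ap-201, was at 237.7, 233.1 and 217.4 TPM in female libraries, against 155.5, 204.1 and 174.5 TPM in male libraries. Its libraries thus did not overlap in TPM, while those of the summed gene did. Counting protein-coding transcripts alone, the log2 fold change was 0.35.

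Most macrophage, neutrophil and endothelial markers had, like Alox5ap, a log2 fold change above 0. That direction was not particular to these lists. Of the adipocyte, skeletal muscle and mural cell markers, 6 of 6, 8 of 8 and 4 of 6 were also above 0. Adipocyte markers summed to 722 CPM in female 2, against 213 to 440 CPM in the other libraries. The 8 macrophage markers, led by Lyz2, summed to 3180 to 3940 CPM in female and 2660 to 3810 CPM in male libraries, with 6 of 8 above 0. The 8 neutrophil markers, led by S100a9, summed to 955 to 1710 CPM in female and 690 to 1350 CPM in male libraries, with 7 of 8 above 0. The 6 endothelial markers, led by Pecam1, summed to 264 to 400 CPM in female and 296 to 337 CPM in male libraries, with 6 of 6 above 0. Mast cell markers, led by Hdc, summed to 140 to 202 CPM in female and 150 to 189 CPM in male libraries, with 2 of 8 above 0. Hdc weighed heavily in that sum, at 112.8 of 171 CPM in female 1, its highest library. Cpa3, Cma1, Mcpt4 and Tpsb2 were lowest in that library. Each of these sums overlapped between the sexes, no marker on these lists passed the threshold in edgeR, and their part in the Alox5ap difference was not tested. The macrophage, neutrophil, endothelial and mast cell lists held 8, 8, 6 and 8 markers. DESeq2 called 1 of them, the neutrophil gene Mmp8, higher in female nerves, and none lower. Over all genes it gave an adjusted p, DESeq2 called 5.28%, 1.41% as higher. Mmp8 had a log2 fold change of 0.93 in edgeR and an adjusted p of 0.000266 in DESeq2.

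Ordered by mean TPM over the 6 libraries, Alox5ap came first at 243.3 TPM, followed by Ptgis at 29.0 and Ptges at 25.5 TPM. Ptgs2, Alox5 and Ptgs1 came next at 14.8, 13.1 and 12.1 TPM. Ptger4 was at 9.31, Hpgd at 7.63, Ptger2 at 4.999 and Ptgds at 3.03 TPM. Alox5ap exceeded Ptgis, Ptges exceeded Ptgs2, and Ptgs1 exceeded Ptger4 in 6 of 6 libraries. Ptgs2 exceeded Alox5 in 3 of 6 libraries, so that neighbouring pair had no fixed order. Each other neighbouring pair kept its order in 5 of 6 libraries.

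**Figure D3:**
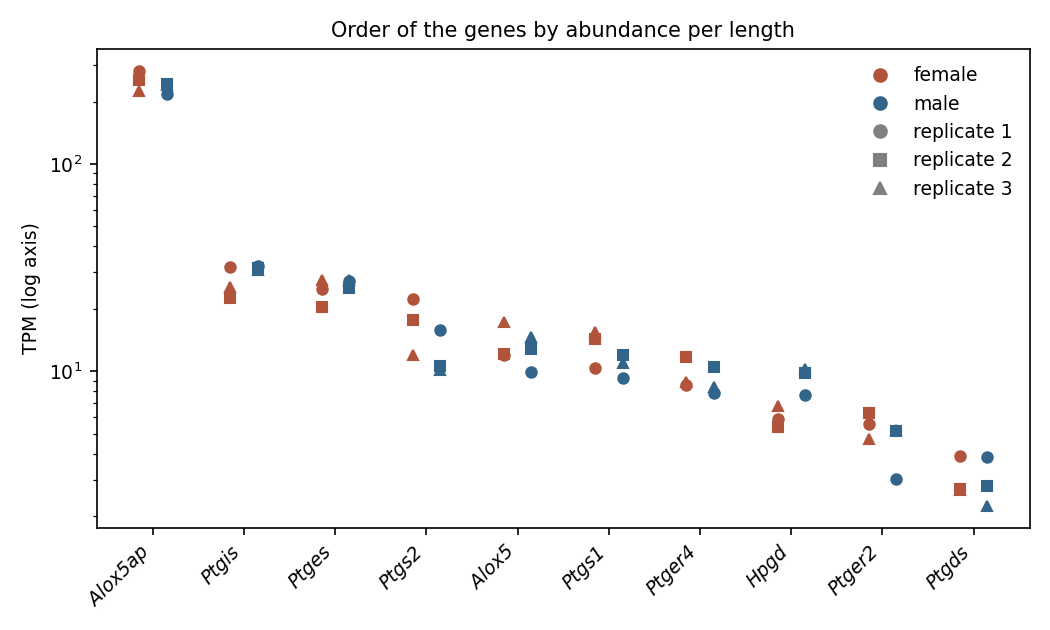
TPM (vertical axis, logarithmic) of the 10 genes in order of their mean, with female points left of male points and 1 point per library, its shape giving the replicate number. Alox5ap lies between 217.4 and 280.6 TPM, above every other gene, and the points of Ptgs2, Alox5 and Ptgs1 cover overlapping ranges.

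Ratios within a library set one step of the pathway against another. Ptgs2 over Ptgs1 was 2.13, 1.24 and 0.775 in female libraries, against 1.71, 0.88 and 0.924 in male libraries, in TPM. Each sex held libraries with more Ptgs2 and libraries with more Ptgs1, and the difference in mean log2 ratio was 0.19 (exact two-sided permutation test, p = 0.7, adjusted p = 0.9 over the 3 ratios). Alox5ap over Alox5 was 23.5, 21.0 and 13.0 in female libraries, against 22.0, 19.1 and 16.3 in male libraries. The difference was -0.03 on the log2 scale (exact two-sided permutation test, p = 0.9, adjusted p = 0.9).

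The sum of both cyclooxygenase genes over Hpgd was 5.52, 5.97 and 4.06 in female libraries, against 3.27, 2.32 and 2.08 in male libraries, in TPM. Every female library lay above every male one. The geometric means were 5.11 in female and 2.51 in male nerves, a difference of 1.03 on the log2 scale. The exact two-sided permutation test gave p = 0.1, the smallest that 3 against 3 libraries can give, and 0.3 after Benjamini-Hochberg adjustment over the 3 ratios. The difference stayed between 0.89 and 1.22 when each library was left out in turn. Hpgd, itself lower in every female library, is the denominator, so this separation in part restates that of Hpgd and is not separate support. The ratio was chosen with earlier results known, and how often other ratios separate was not counted.

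The reads of the 10 genes were spread over 37 annotated transcripts, of which 4 had none in any library. Ptgs2 and Hpgd each had all their reads on 1 protein-coding transcript. Ptgs1 had 89.92%, 91.91% and 91.3% of its reads on coding transcripts in female libraries, against 95.3%, 93.04% and 95.26% in male libraries. These shares did not overlap, and how often coding shares separate the sexes over all genes was not counted. Alox5 had 9.3% to 21.42% on transcripts with a retained intron. Ptgis had 14.9% of its reads on a second coding transcript, Ptgis-202, in male 3, against 3.07% or less in the other libraries. Ptgds reads were divided over 3 coding transcripts of like length in proportions that varied from library to library, at 58 to 135 reads per library in all.

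The retained-intron transcript of Ptger2, Ptger2-202, held 27.99%, 29.92% and 28.23% of the gene's reads in female libraries, against 18.02%, 24.38% and 26.13% in male libraries. The share was higher in each female library than in each male one. How often transcript shares separate the sexes in this way over all genes was not counted. Salmon divides reads between overlapping transcripts by an estimate, so these shares are less certain than the gene totals. Exons of Ptger2 also overlap Gm17173 and Gm49364 on the other strand in GENCODE M21. Gm17173 had 26.2, 28.8 and 32.2 reads in female libraries, against 13, 19 and 18 in male libraries. Gm49364 had 56.7, 42.2 and 59.1 reads in female libraries, against 20.3, 35.8 and 26.5 in male libraries. Both thus had more reads in each female library, not scaled for depth, and their part in the Ptger2-202 share was not tested.

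**Figure D4:**
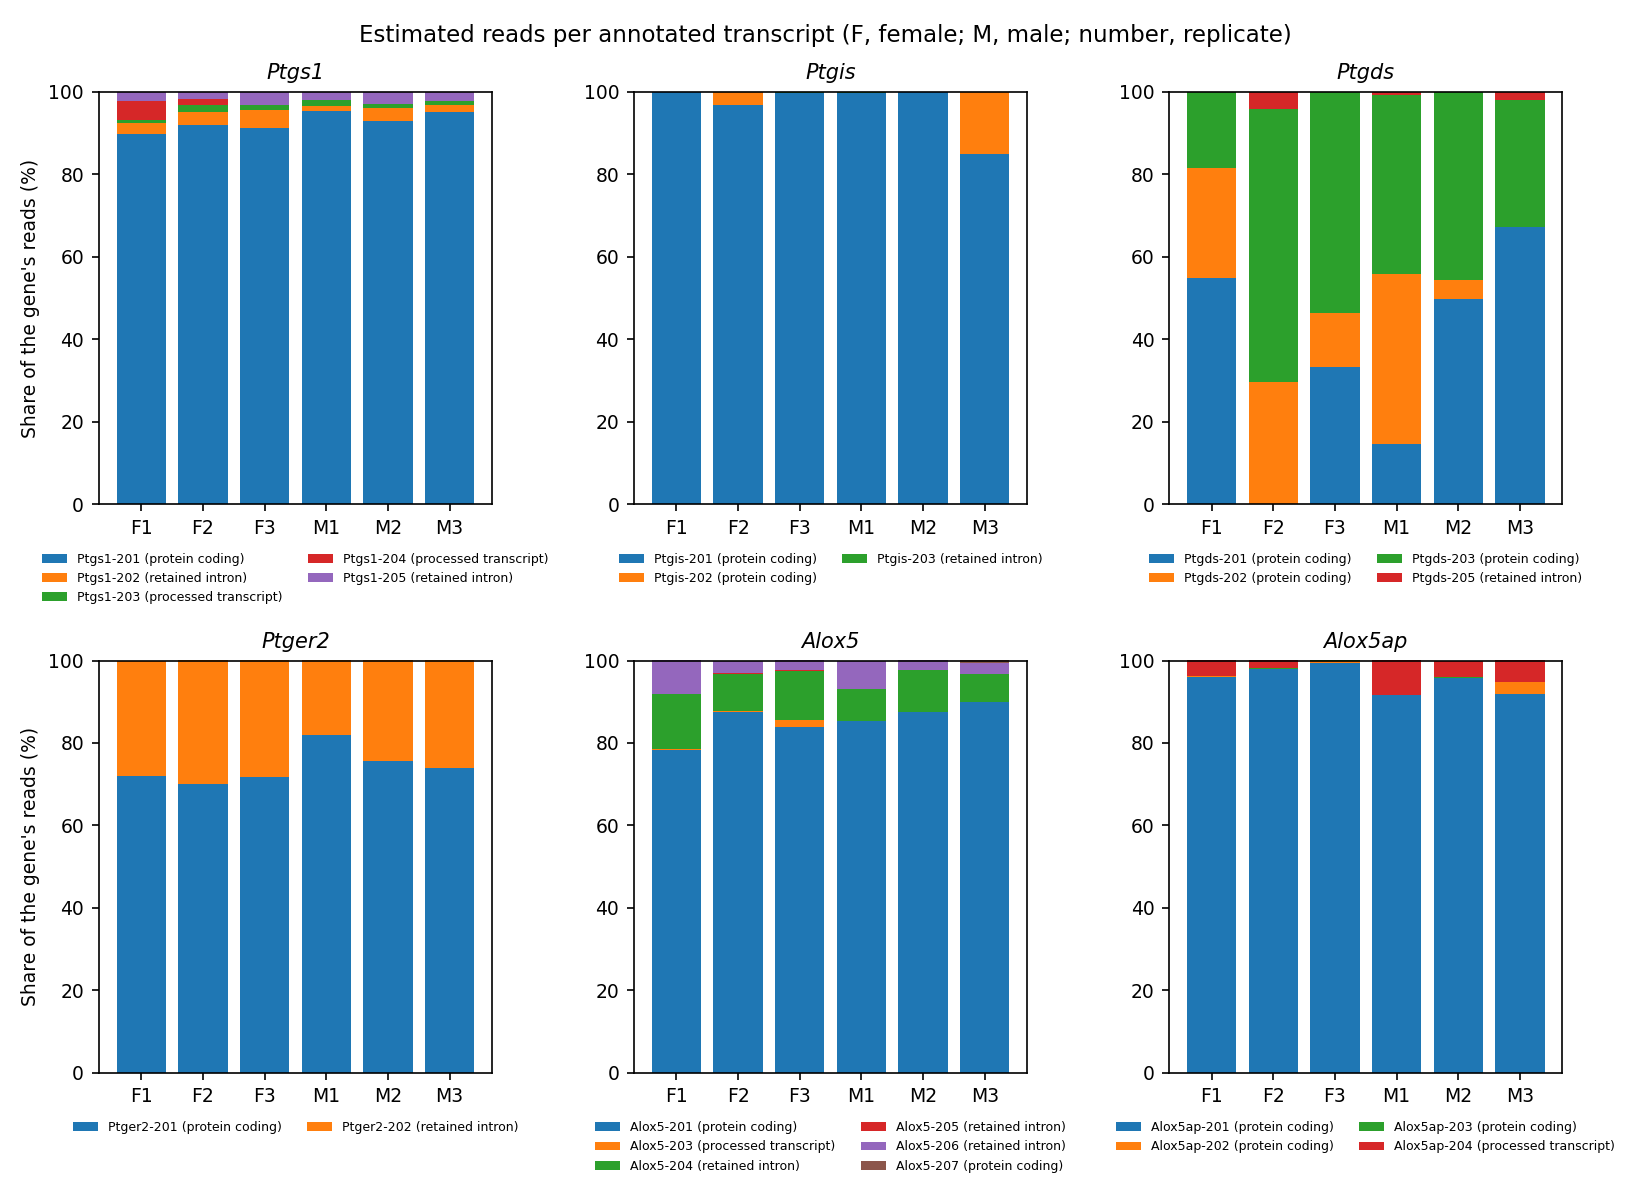
Share of a gene's estimated reads (vertical axis, percent) on each annotated transcript in each library, for 6 of the 10 genes, with female libraries left of male ones. Retained-intron reads make up 18.02% to 29.92% of Ptger2, and the 3 coding transcripts of Ptgds change places from library to library.

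Across libraries the 10 genes did not move as 1 block. In CPM, female 1 was the highest library for 3 genes, female 2 and female 3 for 2 each, male 1 for 2 and male 2 for 1. Male 1 was the lowest library for 4 genes, and female 2 and male 3 for 3 each. Against its mean over the 6 libraries on the log2 scale, Ptgs2 was at 0.74 in female 1 and -0.61 in male 3. Ptger2 was at 0.32 in female 2 and -0.58 in male 1, and Hpgd was at -0.54 in female 2 and 0.41 in male 2.

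For each gene, the most similar profile over the 6 libraries was sought among 100 genes of the wider pathway and marker lists, by the root mean square difference of centred log2 CPM. Ptger2 had the closest match, Cysltr1, a receptor for cysteinyl leukotrienes, at a difference of 0.0382, where the median over the 100 genes was 0.465. Pla2g4a, cytosolic phospholipase A2, was nearest to both Ptgs1 (0.111) and Alox5 (0.125). Ptgis was nearest to the prostaglandin transporter gene Slco2a1 (0.107), and Ptger4 to the prostacyclin receptor gene Ptgir (0.125).
The other matches were marker genes. Ptgs2 was nearest to Hdc (0.202), which makes histamine, and Hpgd to Dcn (0.168), a fibroblast proteoglycan gene. Hdc is on the mast cell list but was highest in female 1, where Cpa3, Cma1, Mcpt4 and Tpsb2 of that list were lowest. Ptges was nearest to Slc2a1 (0.0672), Ptgds to Emcn (0.189) and Alox5ap to Cldn5 (0.0919). Over the 100 genes the median difference was 0.365 for Ptges, 0.46 for Ptgds and 0.369 for Alox5ap. Their own SD over the 6 libraries was 0.0841, 0.337 and 0.191 in log2 CPM. Ptges hardly varied, so its small difference says little about a shared pattern. All points share the same 6 libraries and their depths, so these are descriptions.

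**Figure D5:**
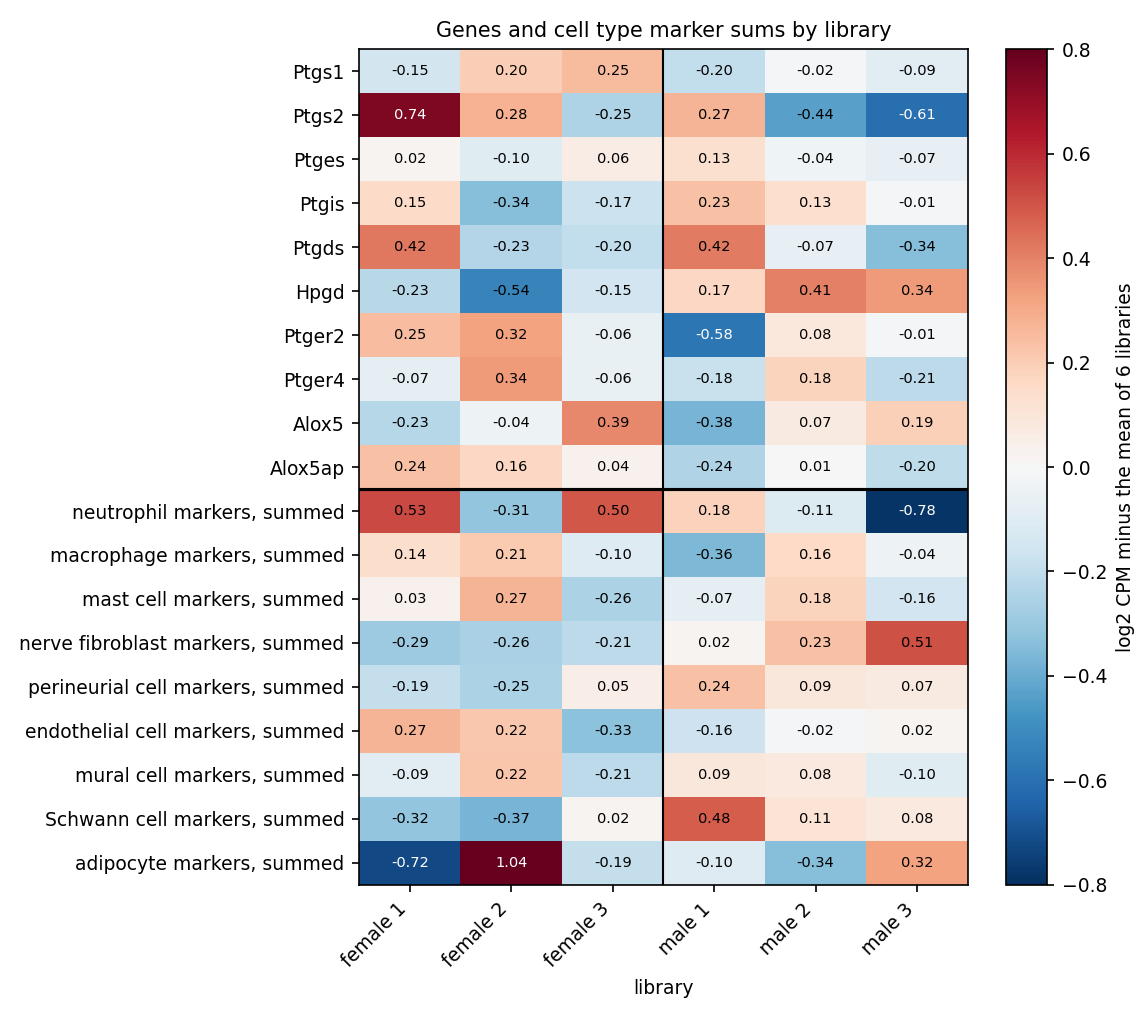
Log2 CPM of each of the 10 genes, and of summed cell type markers, minus its mean over the 6 libraries (colour and printed value), with female libraries left of male ones; skeletal muscle markers are left out for their range, and the colour is capped at 0.8 either way. Ptgs2 runs from 0.74 in female 1 to -0.61 in male 3, and fibroblast and Schwann cell sums are lower in every female library.

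Of 43 other genes of eicosanoid release, synthesis, transport, breakdown and reception, 42 were matched by symbol and 40 were tested. Pla2g10 and Alox12b had too few reads to be tested. None of the 40 passed the threshold in edgeR. At an unadjusted edgeR p under 0.05, 3 were higher and 4 lower in female nerves, where 14.6% of all genes lay past that line, and DESeq2 called 2 higher and 3 lower, where it called 5.28% of all genes. The libraries of 11 of the 40 did not overlap, with female above male in 6 and below it in 5, a pattern seen in 21.2% of all genes. The median log2 fold change was 0.03, with 21 above 0 and 19 below.

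Among genes that release arachidonic acid, Pla2g5, a secreted phospholipase A2, had the lowest p of the whole list. It was at 1.94, 1.83 and 2.71 CPM in female libraries, against 5.02, 4.72 and 4.52 CPM in male libraries. The groups were well separated, with a log2 fold change of -1.14 (SE 0.18). The adjusted p was 0.0896 in edgeR, 0.0083 in edgeR without the filter on low counts, 0.0211 without female 3 and 2.25e-06 in DESeq2, and the highest over the 18 alternatives was 0.311. Fibroblast, Schwann cell and perineurial marker sums were lower in the same libraries, as given for Hpgd, and their part was not tested. Pla2g4a, Pla2g12a and Pla2g6, further phospholipase A2 genes, averaged 22.2, 15.6 and 8.61 TPM, and the female and male libraries of each overlapped.

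Among the other synthases, Akr1b3, an aldose reductase that can make prostaglandin F2alpha, was the most abundant at 212.3 TPM. It was at 157, 161 and 180 CPM in female libraries, against 232, 206 and 203 CPM in male libraries. The groups did not overlap, and the log2 fold change was -0.36 (SE 0.09), with an adjusted p of 0.159 in edgeR and 0.0108 in DESeq2. Hpgds, the haematopoietic prostaglandin D synthase gene, was picked with its values in view. It was at 23.9, 19.4 and 19.0 CPM in female libraries, against 9.41, 16.5 and 14.9 CPM in male libraries. No female library was as low as any male one, male 1 was lowest by far, and the test gave a log2 fold change of 0.61 (SE 0.21), with an adjusted p of 0.267 in edgeR and 0.0625 in DESeq2. Ptges3, the cytosolic prostaglandin E synthase gene, averaged 203.8 TPM, Prxl2b 47.9 TPM and Tbxas1, thromboxane synthase, 38.2 TPM, and the female and male libraries of each overlapped.

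Of the genes for uptake, export and breakdown, Ptgr2 averaged 36.97 TPM, Cyp4f18 34.5 TPM, Slco2a1 25.2 TPM and Ptgr1 16.5 TPM. Ptgr1 and Ptgr2 encode reductases that act after the Hpgd step. Female libraries lay above male ones for Ptgr1, at 25.6 ± 0.251 CPM in female and 23.0 ± 1.12 CPM in male nerves (SD, n = 3 each), and for Cyp4f18, at 37.1 ± 1.11 CPM in female and 30.7 ± 5.41 CPM in male nerves. Neither passed the threshold in edgeR, with adjusted p of 0.372 for Ptgr1 and 0.364 for Cyp4f18.

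Among the other prostanoid receptor genes, Tbxa2r, the thromboxane receptor, had the lowest p. It was at 4.56, 4.74 and 6.00 CPM in female libraries, against 11.6, 8.58 and 7.42 CPM in male libraries. No female library reached a male one. Tbxa2r had a log2 fold change of -0.85 (SE 0.19), with an adjusted p of 0.143 in edgeR and 0.00215 in DESeq2. Ptgfr averaged 15.6 TPM, Ptgir 6.30 TPM and Ptger3, the EP3 receptor, 3.24 TPM.

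In the leukotriene branch, Lta4h, which makes leukotriene B4, averaged 68.1 TPM and Ltc4s, which makes leukotriene C4, 32.3 TPM. Dpep2, a dipeptidase of leukotriene D4, was at 62.0, 75.0 and 46.3 CPM in female libraries, against 27.8, 47.1 and 37.5 CPM in male libraries. The groups overlapped by a narrow margin, and the log2 fold change was 0.71 (SE 0.24), with an adjusted p of 0.272 in edgeR and 0.0367 in DESeq2. Without both libraries that held muscle transcripts it was 0.35. Abcc1, a leukotriene C4 exporter likewise picked, was at 99.8, 122 and 103 CPM in female libraries, against 80.5, 90.8 and 82.2 CPM in male libraries. Its libraries did not overlap, and the log2 fold change was 0.35 (SE 0.09), with an adjusted p of 0.177 in edgeR and 0.0427 in DESeq2, and it was 0.23 without both libraries that held muscle transcripts. Dpep1, a related dipeptidase, was at 40.2 ± 7.30 CPM in female and 52.7 ± 7.30 CPM in male nerves (SD, n = 3 each), with an adjusted p of 0.307 in edgeR. Over the 18 alternatives the highest adjusted p was 0.417 for Akr1b3, 0.400 for Tbxa2r, 0.384 for Abcc1, 0.536 for Dpep2 and 0.529 for Hpgds, and DESeq2 gave the lowest for each.

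Leukotriene receptor genes were measured at unlike levels. Ltb4r1, the high-affinity leukotriene B4 receptor, averaged 29.6 TPM and Ltb4r2, the low-affinity one, 0.172 TPM. The cysteinyl leukotriene receptor genes Cysltr1 and Cysltr2 averaged 28.3 and 1.22 TPM. The female and male libraries overlapped for all 4 receptor genes.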

How the data were processed

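RNA was measured by stranded, poly-A selected sequencing (paired reads of 100 nt, RNA integrity number of at least 7.0). Trimmomatic 0.39, Salmon 1.5.2 and MultiQC 1.9 are named in the submitters' processing notes, and no source used here gives the genome build or annotation. Per the file headers, each deposited table gives an estimated count (not normalized) and a TPM for 140789 transcripts. Lengths are deposited in nt.

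Estimated counts were summed per gene and rounded, and TPM summed. Female was compared with male by edgeR 4.0.16 (R 4.3.3) with filterByExpr, TMM (factors 0.968 to 1.02) and robust estimation; DESeq2 1.42.0, limma 3.58.1, other scalings and filters, a length offset and libraries left out were alternatives. The 10 genes, the lists and the ratios were chosen with earlier results of these data known. Of the wider list, genes past the threshold and up to 4 of highest mean TPM per role were to be named, with the gene of highest mean TPM of each marker list. Female and male libraries came from separate pools. All pairs of libraries differed by more than sampling noise (chi-square per degree of freedom at least 26.3 over genes with at least 20 reads). A count of 3 reads was 0.0387 to 0.0543 CPM, counting error only. The common coefficient of biological variation in edgeR was 0.183. Dpep2 has 2 gene IDs, and the one with more reads was used. The Schwann cell list held 2 more genes, which are not reported here and were left out of its sum and of the search for similar profiles.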

Additional observations from a re-analysis of the deposited data

How the results depend on the processing

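No gene of the 10 passed the threshold under 17 of the 18 alternatives, and DESeq2 called 1, Hpgd, lower. The sign of the log2 fold change was the same under all 18 for Ptgs1, Ptgs2, Ptgis, Hpgd, Ptger2 and Alox5ap; 15 of the 180 values turned sign, for Ptges, Ptgds, Ptger4 and Alox5, and the cause was not tested. With each library left out in turn the log2 fold change ran from -0.056 to 0.050 for Ptges, -0.26 to 0.24 for Ptgds, -0.015 to 0.273 for Ptger4 and -0.12 to 0.21 for Alox5. Without female 2 and male 1 together it was 0.09 for Ptges, 0.35 for Ptgds, -0.067 for Ptger4 and -0.02 for Alox5. It was 0.017 for Ptges with coding transcripts alone, and 0.026 with the length offset and 0.048 in limma on log2(TPM + 1) for Ptgds. The Alox5ap to Alox5 difference (-0.03) was 0.21 in CPM, 0.34 with coding transcripts alone and -0.20 to 0.23 with each library left out; Ptgs2 to Ptgs1 (0.19) ran from -0.19 to 0.54, below 0 without female 1.

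Over all genes, 3 were called higher and 18 lower in female nerves. Higher calls numbered 44 without the low-count filter, 233 in DESeq2, 6 in limma-voom, 1 in limma on log2(TPM + 1), 6 without female 2 and male 1, and 0 to 17 with each library left out. Lower calls numbered 147 without the filter, 638 in DESeq2, 10 in limma on log2(TPM + 1) and 4 to 188 with each library left out, most without female 3. Of the wider pathway, DESeq2 called 2 higher and 3 lower; 1, Pla2g5, was lower without the filter, and 0 to 1 with each library left out.

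Same-numbered libraries did not deviate together over all genes (correlations -0.097, -0.189 and 0.014). That cannot exclude a shared day or batch, which the labels do not give. Ptgs2, picked with its values in view, fell in the same replicate order in both sexes. With the replicate number as a block its unadjusted edgeR p went from 0.163 to 0.00147, with an adjusted p of 0.168. For Ptges the unadjusted edgeR p went from 0.843 to 0.847. With the replicate number as a block, 0 genes were higher and 3 lower, with no call among the 10 or the wider pathway.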
